A study of Drosophila melanogaster with 18 samples.

Results

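Ovaries that lacked both emerin and the checkpoint kinase Chk2 were compared with wild-type ovaries of Drosophila melanogaster. The comparison holds 3 libraries of chk2, emerin double mutants and 7 wild-type libraries out of 18 in the series. Of the wild-type libraries, 4 came from the reference strain CS (Canton S) and 3 from yw. It was run on all genes with at least 10 counts in total over the 18 libraries, which were 12762 of 14237. Each library was made from polyadenylated RNA of about 100 pairs of newly eclosed ovaries, which are immature and hold mainly the stem cell niche and young germ line cysts. The double mutants carried the chk2 alleles P6 and P30, one on each chromosome, together with the emerin alleles G and PK, in a yw background. P6 is a P element insertion with a deletion in the gene, P30 deletes its 5′ part, G is a piggyBac insertion and PK is a stop codon. The series holds no chk2 single mutant, so loss of Chk2 and loss of emerin with Chk2 cannot be told apart here. Neither CS nor yw carries these alleles, and yw shares its marker background with the double mutants.

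Emerin is a LEM-domain protein of the inner nuclear membrane that binds lamins and the DNA-binding protein BAF, and in Drosophila it is encoded by otefin (Ote). Chk2, encoded by loki (lok), is a protein kinase that acts below ATR and ATM and stops or kills cells with damaged DNA or damaged nuclei. In the fly ovary an active Chk2 blocks the survival and differentiation of germline stem cells, and emerin mutants lose these cells. The study therefore asked how the ovary transcriptome looks when emerin is lost but the checkpoint cannot be activated, and the question here is how far such ovaries remain from wild type.

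The gene table gave 21012351 to 28372959 counts per chk2, emerin library and 18664430 to 25337680 per wild-type library. No library was a copy of another, and the labels name the samples as replicates while the study describes independent RNA isolates. The transcript tables of CS 1, CS 2, yw 1 and yw 2 hold 7.418 to 18.875 times fewer counts than the gene table, together with 3 libraries of other groups, whereas in all 3 double mutants, CS 3, CS 4 and yw 3 the ratio was 0.999. With these 3 wild-type libraries alone as the reference, 366 genes were higher and 508 lower, of which 245 and 396 were also called with all 7. All levels below are CPM, counts scaled to a common library total with edgeR's TMM factors, and a gene was called at a Benjamini-Hochberg adjusted p under 0.05 in edgeR's quasi-likelihood test over all genes. In whole ovaries, fewer cells of a type and less RNA per cell cannot be told apart.

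The mutated genes were examined first. The lok gene (FBgn0019686) lies on 2L at 20061422 to 20064381 on the plus strand in dm6 coordinates. Its level was 16.0, 15.7 and 14.3 CPM in the double mutants, and in wild type the lowest, median and highest were 194, 238 and 247 CPM. The groups did not overlap, and lok was 14.8-fold lower (log2 fold change -3.89, SE 0.24, edgeR adjusted p = 9.05e-08). The log2 fold change was -3.80 against CS and -4.01 against yw. The reads that remained were not spread evenly over its annotated transcripts. The authors' estimated counts for lok-RB were 137, 100 and 105 in the double mutants and 3164, 4363 and 3482 in CS 3, CS 4 and yw 3. For lok-RC they were 257, 197 and 186 against 754, 903 and 632, so that lok-RC was above lok-RB in each double mutant and below it in each of these wild-type libraries. These are model estimates for overlapping transcripts and were not tested. In emerin single mutants, which keep the chk2 gene, lok was at 55.2 to 121 CPM in 4 libraries, between both other groups.

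The Ote gene (FBgn0266420, 2R, 18275607 to 18277177, minus strand) was at 21.6, 23.1 and 23.1 CPM in the double mutants. Wild-type libraries ran from 64.8 to 85.3 CPM with a median of 79.8. Ote was therefore lower in each double mutant than in any wild-type library, by 3.38-fold (log2 fold change -1.76, SE 0.36, edgeR adjusted p = 0.00905). The call was lost without chk2, emerin replicate 1 and without replicate 3. Transcript is thus still detected from both mutated genes. Of the neighbours of lok, barr, vls and bwa had log2 fold changes of -0.19, 0.01 and -0.35, and none was called (edgeR adjusted p = 0.544, 0.986 and 0.212).

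**Figure D1:**
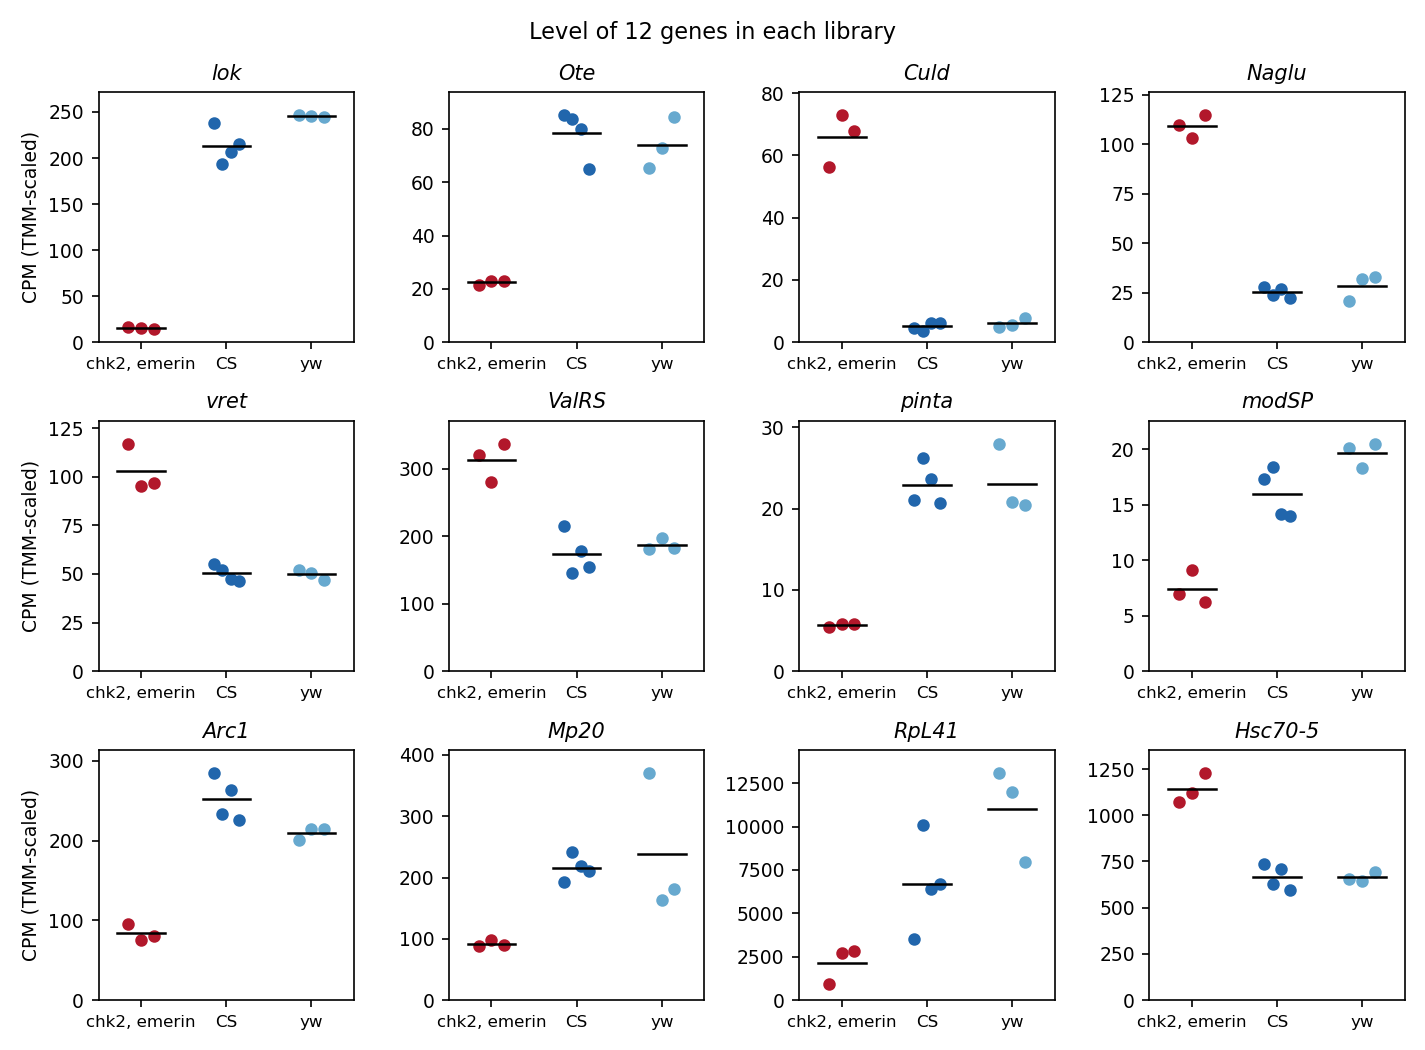
Level of 12 genes in each library, in TMM-scaled CPM, with each y axis starting at 0. Points are the 3 chk2, emerin, 4 CS and 3 yw libraries and the line is the group mean, and in every panel the 3 double mutants lie outside the range of the 7 wild-type libraries.

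Against wild type, 360 genes were higher in chk2, emerin ovaries, 2.82% of the genes tested, and 607 were lower, 4.76%. The median log2 fold change of the called genes was 0.67 and -1.02, respectively, the latter -0.97 with genes that were at 0 in a whole group set at their bound. Changes of 2-fold or more were found for 103 higher and 310 lower genes. Emerin single mutants, compared with the same wild-type libraries, gave 3608 higher genes, 28.3%, and 3392 lower, 26.6%. For the double mutants the split depended on the scaling. The higher genes were 37.2% of the calls with TMM and 21.5% with library size only, which gave 253 higher and 923 lower genes.

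The counts rested strongly on single libraries. Without chk2, emerin replicate 1 there were 75 higher and 92 lower genes, without replicate 3 there were 89 and 118, without replicate 2 there were 182 and 280, and without CS replicate 3 there were 219 and 352. A smaller set was called whichever of the 10 libraries was left out, namely 61 higher genes with a median log2 fold change of 2.13 and 72 lower genes with a median of -1.67. In most gene-by-gene accounts below it is stated in how many of these 10 fits a gene stayed called where that number is under 10. For some genes, double mutant libraries whose removal ended the call are named instead.

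A fit of the compared groups alone gave 122 higher and 172 lower genes, and with the replicate number as a block it gave 37 and 32. The block covered the CS, yw and double mutant libraries together. Deviations of same-numbered yw and double mutant libraries were hardly correlated in all but the third pair. Of the 74 called genes that were chosen by rule to be named, 44 stayed called in the fit of the compared groups and 26 with the block. These 26 were lok, Ote, Cyp12d1-d, Cyp6a17, CG31683, CG33509, bw, Culd, lov, Naglu, vret, CG2993, Hsc70-5, Argl, nxf2, Muc11A, CG32640, CG12896, Ggamma30A, Sclp, pinta, CG9338, CG43954, Arc1, Npc2b and modSP.

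Each strain was also used alone as the reference, with CS and yw as separate groups. Against CS, 530 genes were higher, 4.15%, and 942 lower, 7.38%. Same-numbered CS and chk2, emerin libraries deviated together, though the third pair only weakly. In a fit of the compared groups with the replicate number as a block 608 genes were lower than CS. Against yw, 685 were higher, 5.37%, and 1223 lower, 9.58%. These 2 comparisons share the double mutant libraries. In both of them, 177 genes were higher, 1.39%, and 320 lower, 2.51%, and all of these were also called against the pooled wild type. Of the 360 higher genes, 90 were called against CS but not yw, 66 against yw but not CS and 27 against neither alone. Of the 607 lower genes these numbers were 151, 135 and 1. The strains themselves differed in 1499 genes, 11.7%. In the same fit, with CS and yw as separate groups and the mean of both as the reference, 643 genes were higher and 1062 lower in the double mutants. Of the 967 genes called against the pooled wild type, 7.58% of those tested, 101 also differed between CS and yw.

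In CPM, all 3 double mutants were above all 7 wild-type libraries for 821 genes, 6.43% of those tested, and below all 7 for 907, 7.11%. Of the called genes, 329 higher and 508 lower ones were free of overlap in this way.

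The change in a gene went with the length of its transcripts. Higher genes had a median transcript length of 3437.5 bases and lower genes of 1053 bases, against 1701.5 bases for all 12712 genes with a length. Across genes, which are not independent replicates, Spearman's correlation of log2 fold change with length was 0.385. It was 0.246 against CS, 0.427 against yw and 0.325 with CS 3, CS 4 and yw 3 only. The genes were divided by length into 10 classes. In the shortest class, of 1272 genes with a median of 530.25 bases, 3 genes were higher and 158 lower, and the median log2 fold change was -0.692. In the longest class, with a median of 5585 bases, 110 were higher and 13 lower, and the median was 0.354. The lower genes were thus mostly short and the higher genes mostly long.

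**Figure D2:**
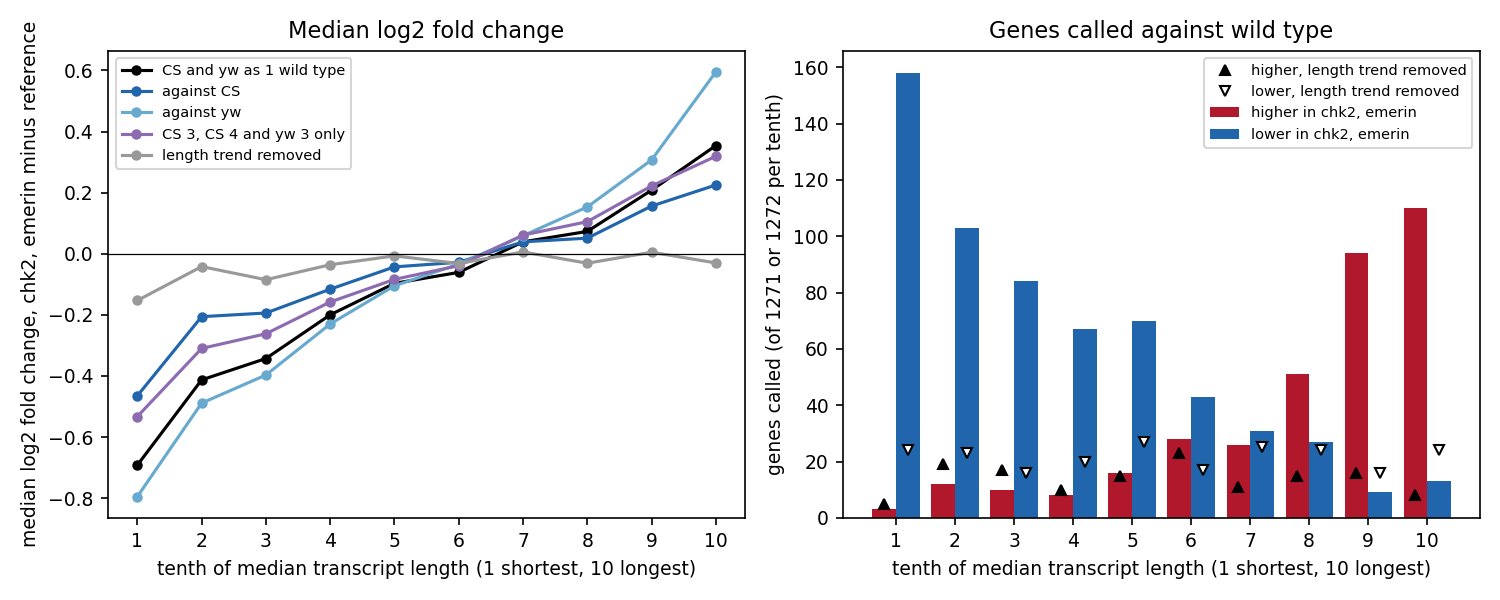
Left, median log2 fold change of chk2, emerin against each reference in 10 classes of transcript length, from the shortest to the longest genes. Right, genes called higher (red bars) and lower (blue bars) in each class against all 7 wild-type libraries, with triangles for the same counts after the length trend of each library was removed, and the bars run from 3 higher and 158 lower genes in the shortest class to 110 and 13 in the longest.

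The same measure was taken in each library as the log2 level of the longest minus that of the shortest of 5 length classes, over 8773 genes at 1 CPM or more and relative to the mean of the 10 libraries. It was 0.857, 0.292 and 0.404 in the double mutants. In CS 1 to CS 4 it was 0.414, -0.256, -0.24 and 0.338, and in yw 1 to yw 3 it was -0.863, -0.061 and -0.588. The double mutants were all positive, but CS 1 and CS 4 fell within their range, and chk2, emerin replicate 1 stood at the top. The mean difference of 0.697 gave p = 0.0833 in a two-sided exact permutation test of 3 against 7 libraries, for which 0.0167 is the smallest p possible under this test. CS and yw also differed from each other along length, with a correlation of 0.262 across genes for CS minus yw. Emerin single mutants had -0.058 against wild type. The part of transcript length in the individual calls was addressed by removing the length trend of each library.

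**Figure D3:**
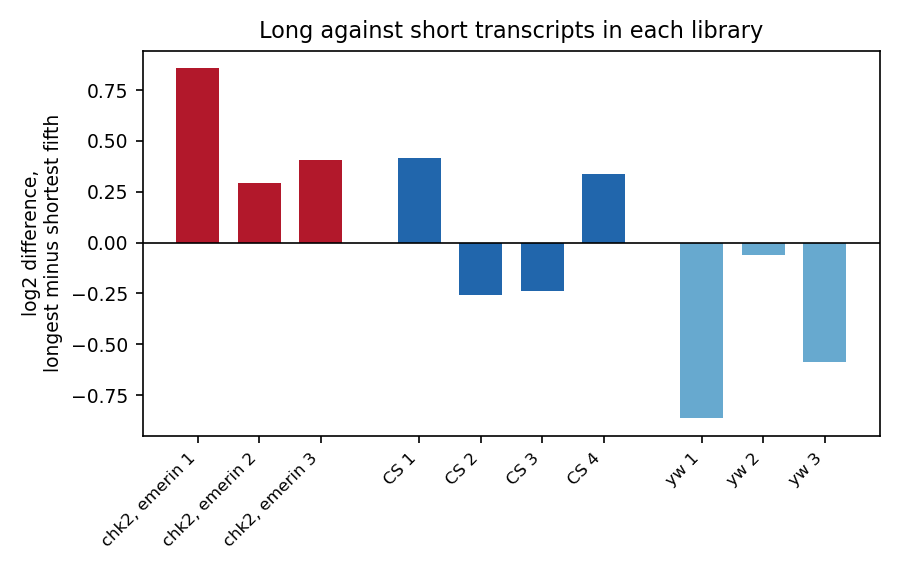
Difference between the longest and the shortest of 5 classes of genes by transcript length in each library, in log2 units relative to the mean of these 10 libraries, as bars from 0. The 3 chk2, emerin libraries run from 0.292 to 0.857 and overlap with CS 1 and CS 4, while the 3 yw libraries are all below 0.

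With that trend removed, the correlation was 0.041, and 140 genes were higher, 1.1%, and 217 lower, 1.7%. Of these, 119 and 192 had been among the 360 and 607. The median lengths became 1748 and 1677 bases. Of the genes called against both strains, 88 higher and 162 lower ones stayed called. Of the 61 and 72 genes called in all 10 fits with a library left out, 52 and 66 stayed called as well. The genes with the largest changes are described next, and their fold changes after removal of the trend are given only where the call was lost or the value moved by over 1.5 times.

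Among the higher genes the smallest adjusted p belonged to Culd (FBgn0035880), which encodes a membrane protein with CUB and LDLa domains. It was at 56.4, 73.1 and 68 CPM in the double mutants and at 3.66 to 7.91 CPM, median 5.66, in wild type. Culd was 11.8-fold higher with no overlap (log2 fold change 3.56, SE 0.21, edgeR adjusted p = 9.05e-08). In emerin single mutants it ranged from 7.41 to 13.8 CPM, so its level in the double mutants was also above those of the single mutants, at a log2 difference of 2.64 (edgeR adjusted p = 4.67e-07). Naglu, the lysosomal enzyme alpha-N-acetylglucosaminidase, was at 110, 103 and 115 CPM against 21.0 to 32.9, median 26.9. It was 4.11-fold higher (log2 fold change 2.04, SE 0.19, edgeR adjusted p = 2.75e-05), and emerin single mutants lay on the other side of wild type, at 6.39 to 14.4 CPM.

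Among genes of the germ line, vret encodes Vreteno, a Tudor domain protein needed for primary piRNA production. It was at 117, 95.5 and 96.8 CPM in the double mutants and at 46.4 to 55.0, median 50.5, in wild type. It was thus 2.06-fold higher without overlap (log2 fold change 1.04, SE 0.10, edgeR adjusted p = 4.7e-05), and in emerin single mutants it ranged from 18 to 24.0 CPM. The gene nxf2, whose product works in piRNA-guided silencing in the nucleus, was at 156, 161 and 177 CPM against 58.9 to 96.3 and rose by a log2 fold change of 1.12 (edgeR adjusted p = 0.00453). Against the pooled wild type these were the called members among 22 piRNA pathway genes tested, 9.09% higher beside 2.82% of all genes. Against CS 2 were higher, 9.09% beside 4.15%, and against yw 3, 13.6% beside 5.37%, with 0 lower against either. The median log2 fold change of the list was 0.08 against -0.07 for all genes.

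Outside the 10 highest fold changes, the other higher genes with small p were Hsc70-5, CG2993 and Argl. Hsc70-5, the mitochondrial Hsp70 chaperone, was at 1070, 1120 and 1230 CPM against 598 to 739, median 653 (log2 fold change 0.77, SE 0.10, edgeR adjusted p = 0.000499). It was one of the smallest changes in this set and one of the most abundant transcripts. CG2993 was at 13.8, 18.8 and 20.9 CPM against 1.6 to 5.83 (log2 fold change 2.48, edgeR adjusted p = 0.000421). Argl, argininosuccinate lyase, was at 13.8, 22.5 and 20.3 CPM against 5.13 to 9.96 (log2 fold change 1.29, edgeR adjusted p = 0.000801).

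The largest rises belonged to genes that were near 0 in wild type. Cyp12d1-d, a cytochrome P450 gene, was at 16.3, 19.7 and 16.2 CPM in the double mutants and had no count in any of the 7 wild-type libraries. Set against a floor of 3 counts in each wild-type library, it was at least 130-fold higher (edgeR adjusted p = 0.000335). Its neighbour and near-copy Cyp12d1-p had a log2 fold change of 0.64 (edgeR adjusted p = 0.0832), and reads of both could be exchanged in the authors' estimation. Their sum was still apart, at 30.7, 36.9 and 30.9 CPM against 5.50 to 13.7. Cyp6a17 was at 5.08, 7.48 and 5.21 CPM against 0.0 to 0.864 (log2 fold change 5.13, edgeR adjusted p = 0.000465), and the highest wild-type value, in CS 3, lay far from the other 6. The gene was at 22.1 to 27.2 CPM in emerin single mutants. Next to it, Cyp6a23 had a log2 fold change of -1.16 (edgeR adjusted p = 0.0408), a call that held in 4 of the 10 fits with a library left out and was lost with the length trend removed, at -1.12 (edgeR adjusted p = 0.0621).

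The gene bw, which encodes a subunit of the ABC transporter that imports eye pigment precursors, was at 11.1, 17.9 and 15.6 CPM against 0.159 to 1.12. It was 21.2-fold higher (log2 fold change 4.41, SE 0.42, edgeR adjusted p = 2.75e-05), and emerin single mutants were in the same range, at 10.7 to 22.2 CPM. For lov, a BTB domain protein gene, the values were 7.93, 5.67 and 4.83 CPM against 0.159 to 1.07 (log2 fold change 3.31, edgeR adjusted p = 0.000819). CG33509, CG12224, CG31683 and CG18853 complete the 10 highest, with log2 fold changes of 4.60, 2.97, 4.83 and 3.99. CG18853 was at 49.7, 55.8 and 50.6 CPM against 0.0 to 12.2, and its call was lost in 3 of the 10 fits with a library left out.

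Among the lower genes, pinta, a retinoid-binding protein of the eye, had the smallest p after lok. It was at 5.41, 5.82 and 5.86 CPM in the double mutants and 20.4 to 28, median 21.1, in wild type. The 4.03-fold decrease was seen with no overlap (log2 fold change -2.01, SE 0.17, edgeR adjusted p = 8.31e-06). Arc1, whose product forms capsid-like particles that carry RNA between neurons and muscle and takes part in metabolism, was at 95.9, 75.7 and 80.4 CPM against 201 to 285, median 226. It fell by 1.48 on the log2 scale (SE 0.18, edgeR adjusted p = 0.000412). Npc2b, of the sterol-binding NPC2 family, was at 8.70, 14.5 and 10.2 CPM against 29.1 to 50.5 (log2 fold change -1.90, edgeR adjusted p = 0.000491). CG9338 and CG43954 had log2 fold changes of -1.49 and -1.68 (edgeR adjusted p = 0.000224 and 0.000336). Of these 5 genes, Npc2b and CG9338 were higher than wild type in emerin single mutants, by 1.70 and 2.15 on the log2 scale.

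The lowest fold changes again included genes that reached 0. CG32640, on the X chromosome at 13178005, had no count in any double mutant and 1.72 to 26.3 CPM, median 9.33, in wild type. It was at least 98.8-fold lower against a floor of 3 counts in each library (edgeR adjusted p = 0.00965), and the call held in 8 of the 10 fits with a library left out. Its near-copy CG32641, at 13184478, had a log2 fold change of -0.06 (edgeR adjusted p = 0.911), and reads of both could be exchanged in the estimation. Their sum overlapped between the groups, at 17.2, 21.8 and 21.0 CPM in the double mutants and 20 to 52.6 in wild type. Oseg5, an intraflagellar transport gene, was at 0.569, 0.685 and 0.114 CPM against 3.25 to 11.6 (log2 fold change -3.90, edgeR adjusted p = 0.000602). Ggamma30A, a G protein gamma subunit, was at 0.651, 0.489 and 0.494 CPM against 2.28 to 6.49 (log2 fold change -3.04, edgeR adjusted p = 0.000491). In emerin single mutants Ggamma30A was higher than wild type, by 3.13 on the log2 scale.

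CG12896, CG2233 and Sclp had log2 fold changes of -3.16, -2.75 and -2.63, with no overlap between the groups. CG12896 stayed called in all 10 fits with a library left out, CG2233 in 9 and Sclp in 7. The P450 gene Cyp312a1 was at 0.691, 0.734 and 0.304 CPM against 1.33 to 8.84 (log2 fold change -2.94, edgeR adjusted p = 0.0106), a call held in 8 of 10. BomS3 and GNBP-like3, the other 2 of the 10 lowest, are genes of the immune response.

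Several genes of humoral immunity were called lower in the double mutants. BomS3 encodes a Bomanin, a short secreted peptide made under the control of Toll signaling. It was at 1.79, 9.68 and 5.10 CPM against 14.1 to 96.4, median 25.9 (log2 fold change -3.13, SE 0.70, edgeR adjusted p = 0.0151, called in 8 of 10 fits with a library left out). GNBP-like3, related to the recognition proteins of Gram-negative bacteria, was at 1.18, 1.03 and 0.494 CPM against 2.16 to 15 (log2 fold change -2.99, edgeR adjusted p = 0.0115, also called in 8 of 10). The Bomanin family was then looked at as a whole, a choice made after these values were seen. Of its 12 genes tested, 8 were called lower and 0 higher against wild type, beside 4.76% lower among all genes. Against CS 10 were lower, beside 7.38% of all genes, and against yw 1, beside 9.58%. The called members other than BomS3 held in 3 to 7 of the 10 fits with a library left out. With the length trend removed 1 stayed lower, beside 1.7% of all genes. The median log2 fold change was -2.86, and -2.13 with the trend removed. All but BomBc3 and BomT3 lie on 2R within 500 kb of Ote. The annotated transcripts of the 12 genes are short, from 198 to 629 bases. The summed level was 14.0, 34.6 and 18.4 CPM in the double mutants, 43.6 to 292 in CS and 58.8 to 72.6 in yw. The sums did not overlap, but CS 1 lay near the double mutants.

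The 17 antimicrobial peptide genes tested included 3 lower and 0 higher genes, 17.6% and 0.0%, against 4.76% and 2.82% of all genes. Their median log2 fold change was -2.07, or -1.59 with genes at 0 in a whole group set at their bound, and -1.31 with the length trend removed, where none was called. Against CS 2 were lower, 11.8% beside 7.38% of all genes, and against yw 1, 5.88% beside 9.58%. None was called lower against the pooled wild type, CS and yw alike. Drs, the antifungal peptide Drosomycin, was at 5.82, 4.94 and 8.29 CPM against 10.9 to 73.5, median 24.1 (log2 fold change -2.31, edgeR adjusted p = 0.0353, called in 5 of 10). CecA1 had no count in the double mutants and 0.0569 to 2.14 CPM in wild type, and was at least 4.42-fold lower in the double mutants against the floor (edgeR adjusted p = 0.0422, called in 6 of 10). CecC had 1 count in the 3 double mutants and 45 in the 7 wild-type libraries, a ratio of 20.3 with an exact 95% counting interval from 3.42 to 810 (edgeR adjusted p = 0.0469, called in 2 of 10). The summed level of the list was 10.4, 7.97 and 10.2 CPM in the double mutants and 14.8 to 96.5 in wild type.

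In the pathways that control these peptides, 6 of 31 Toll and Imd signaling genes were lower and 0 higher, 19.4% against 4.76% of all genes for the lower ones. With the length trend removed 2 of 31 were lower, beside 1.7% of all genes. Against CS, 7 were lower and 1 higher, 22.6% lower beside 7.38% of all genes. Against yw 2 were lower and 2 higher, 6.45% lower beside 9.58%. The median of the list was -0.19, and that of all genes -0.07. The clearest was modSP, a protease that starts the cascade upstream of Toll, at 6.95, 9.15 and 6.24 CPM against 14.0 to 20.5, median 18.3. It did not overlap with wild type (log2 fold change -1.24, edgeR adjusted p = 0.000602). SPE, the protease that cleaves the Toll ligand Spätzle, and nec, the serpin that holds the cascade in check, were also called lower, with log2 fold changes of -1.85 and -0.94 (edgeR adjusted p = 0.0411 and 0.0173, called in 4 and 8 of 10). For imd, the adaptor of the other pathway, the values were 8.46, 10.4 and 9.39 CPM against 12.4 to 14.5 (log2 fold change -0.53, edgeR adjusted p = 0.0136, called in 8 of 10), and its call was lost with the length trend removed, at -0.41 (edgeR adjusted p = 0.0605). The IKK complex genes key and IKKbeta had log2 fold changes of -0.42 and -0.48 and were called in 2 and 1 of the 10 fits. With the length trend removed SPE, key and IKKbeta were at -1.68, -0.29 and -0.55 and were not called (edgeR adjusted p = 0.0867, 0.211 and 0.0501), while modSP and nec were. The list thus held both activators and an inhibitor of the pathway among its lower genes. Markers of hemocytes and fat body, which make many of these peptides, are given below.

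**Figure D4:**
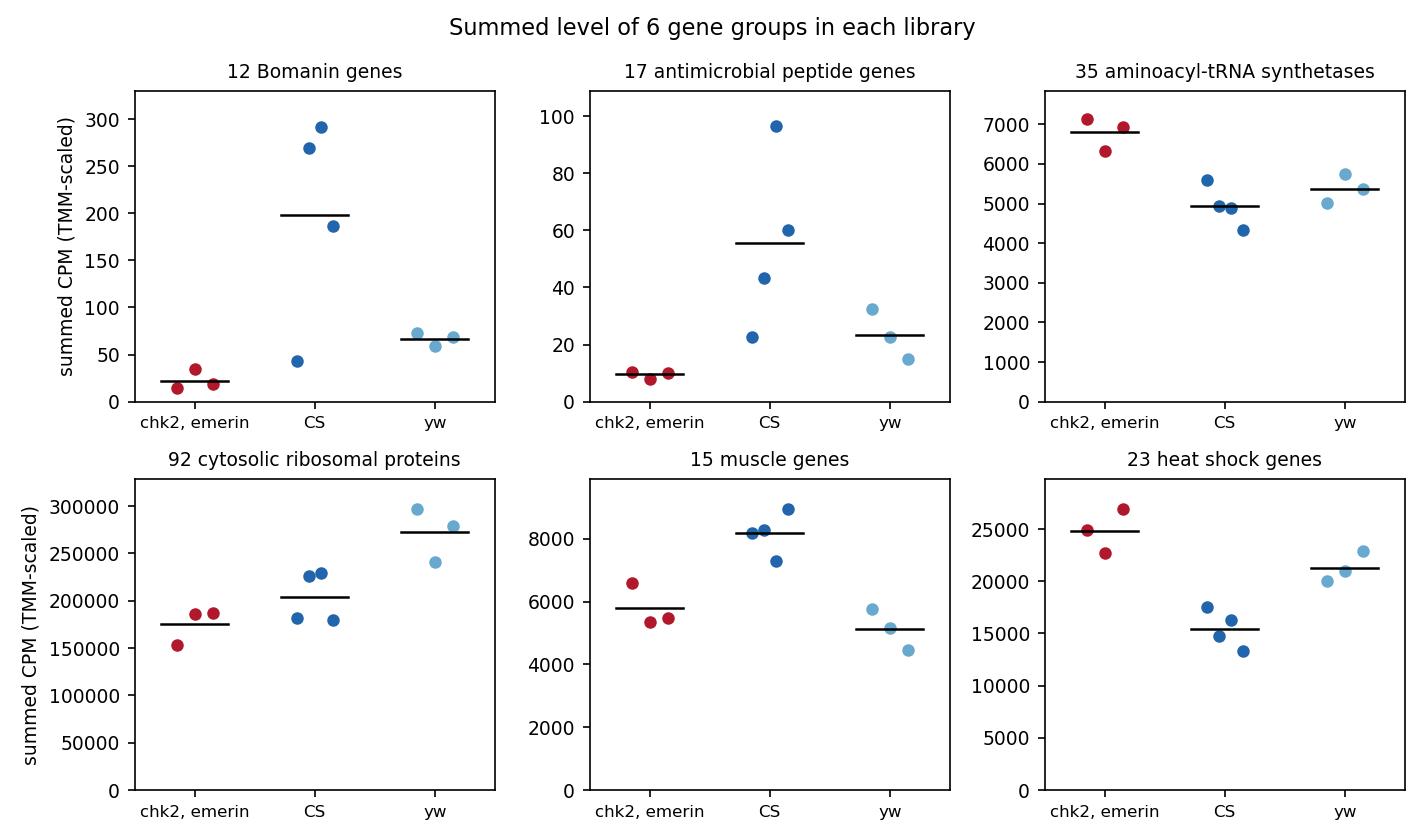
Summed level of 6 gene groups in each library, in TMM-scaled CPM from 0, with points for the 3 chk2, emerin, 4 CS and 3 yw libraries and a line at each group mean. The 12 Bomanin genes sum to 14.0 to 34.6 in the double mutants against 43.6 to 292 in wild type, while the sum of the muscle genes overlaps with yw and that of the ribosomal protein genes with CS.

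Aminoacyl-tRNA synthetases, which charge tRNAs with amino acids, were called higher in 7 of 35 and lower in 0, beside 2.82% and 4.76% of all genes. Against CS, 12 were higher, 34.3% beside 4.15% of all genes, and against yw 6, 17.1% beside 5.37%. With the length trend removed 3 were higher, beside 1.1% of all genes. Of the 35, 33 had a positive log2 fold change, with a median of 0.28. ValRS was at 320, 280 and 337 CPM against 146 to 215, median 181 (log2 fold change 0.80, edgeR adjusted p = 0.00254). AlaRS-m, the mitochondrial alanyl enzyme, was at 62.5, 52.0 and 58.5 CPM against 37.8 to 45.5 (log2 fold change 0.53, edgeR adjusted p = 0.00283). GluProRS was at 632, 465 and 515 CPM against 222 to 389 (log2 fold change 0.78, edgeR adjusted p = 0.00804, called in 9 of 10). These 3 were also the members that stayed called with the length trend removed, at 0.62, 0.37 and 0.50. The summed level of the list was 7130, 6330 and 6940 CPM in the double mutants and 4330 to 5740 in wild type, with no overlap. In emerin single mutants 31 of the 35 were lower than wild type and 0 higher.

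Cytosolic ribosomal protein genes were called lower in 16 of 92 and higher in 0, which is 17.4% against 4.76% of all genes, with a median of -0.46. These transcripts are short, with a median of 708 bases, and with the length trend removed 1 was lower, 1 higher and the median was -0.04. Against CS, 4 were lower, 4.35% beside 7.38% of all genes, and against yw 52 were, 56.5% beside 9.58%. RpL41, which encodes a very short peptide, was at 917, 2740 and 2850 CPM against 3520 to 13100, median 7930 (log2 fold change -1.98, edgeR adjusted p = 0.0101, called in 9 of 10). It was the member that stayed lower with the trend removed, at -1.21 (edgeR adjusted p = 0.0376). RpL29 had 270, 896 and 845 CPM against 1020 to 3460, and RpS12 had 1180, 1480 and 1380 CPM against 1660 to 2780 (log2 fold changes -1.67 and -0.71, edgeR adjusted p = 0.017 and 0.0195, each called in 8 of 10). Their calls were lost with the trend removed, at -0.92 and -0.24. For both short transcripts, RpL41 and RpL29, chk2, emerin replicate 1 was the lowest of the double mutants. The summed level of the list overlapped between groups, at 153000 to 187000 CPM in the double mutants and 180000 to 297000 in wild type.

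Of 75 mitochondrial ribosomal protein genes, 4 were lower and 0 higher, and the share of lower genes, 5.33%, was near the 4.76% of all genes. Against CS 3 were lower, 4.0% beside 7.38% of all genes, and against yw 20, 26.7% beside 9.58%. Of 88 oxidative phosphorylation genes, 8 were lower, 9.09%, and 1 higher. Against CS 5 were lower, 5.68% beside 7.38% of all genes, and against yw 19, 21.6% beside 9.58%. The medians of both lists turned from -0.15 and -0.25 to 0.24 and 0.12 with the length trend removed. With 6 genes at 0 in a whole group set at their bound, the second median was -0.19 before removal. ND-MWFE, a small subunit of complex I, was at 18.2, 36.8 and 37.4 CPM against 50.4 to 120 (log2 fold change -1.45, edgeR adjusted p = 0.00349), and stayed called with the trend removed at -0.92. UQCR-6.4 was at 16.8, 56.3 and 56.0 CPM against 69.4 to 222 (log2 fold change -1.68, edgeR adjusted p = 0.0119, called in 9 of 10) and also stayed called, at -1.04. For the mitochondrial ribosomal genes mRpL33 and tko, at -1.28 and -1.01 before, the calls were lost at -0.53 and -0.76. Both calls were also lost without chk2, emerin replicate 1, and that of tko without replicate 2 and without replicate 3. The 14 genes of the mitochondrial genome had a median of 0.74, and edgeR called none of them against the pooled wild type (3 up and 0 down at unadjusted p below 0.05), 1 higher against CS and none against yw.

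**Figure D5:**
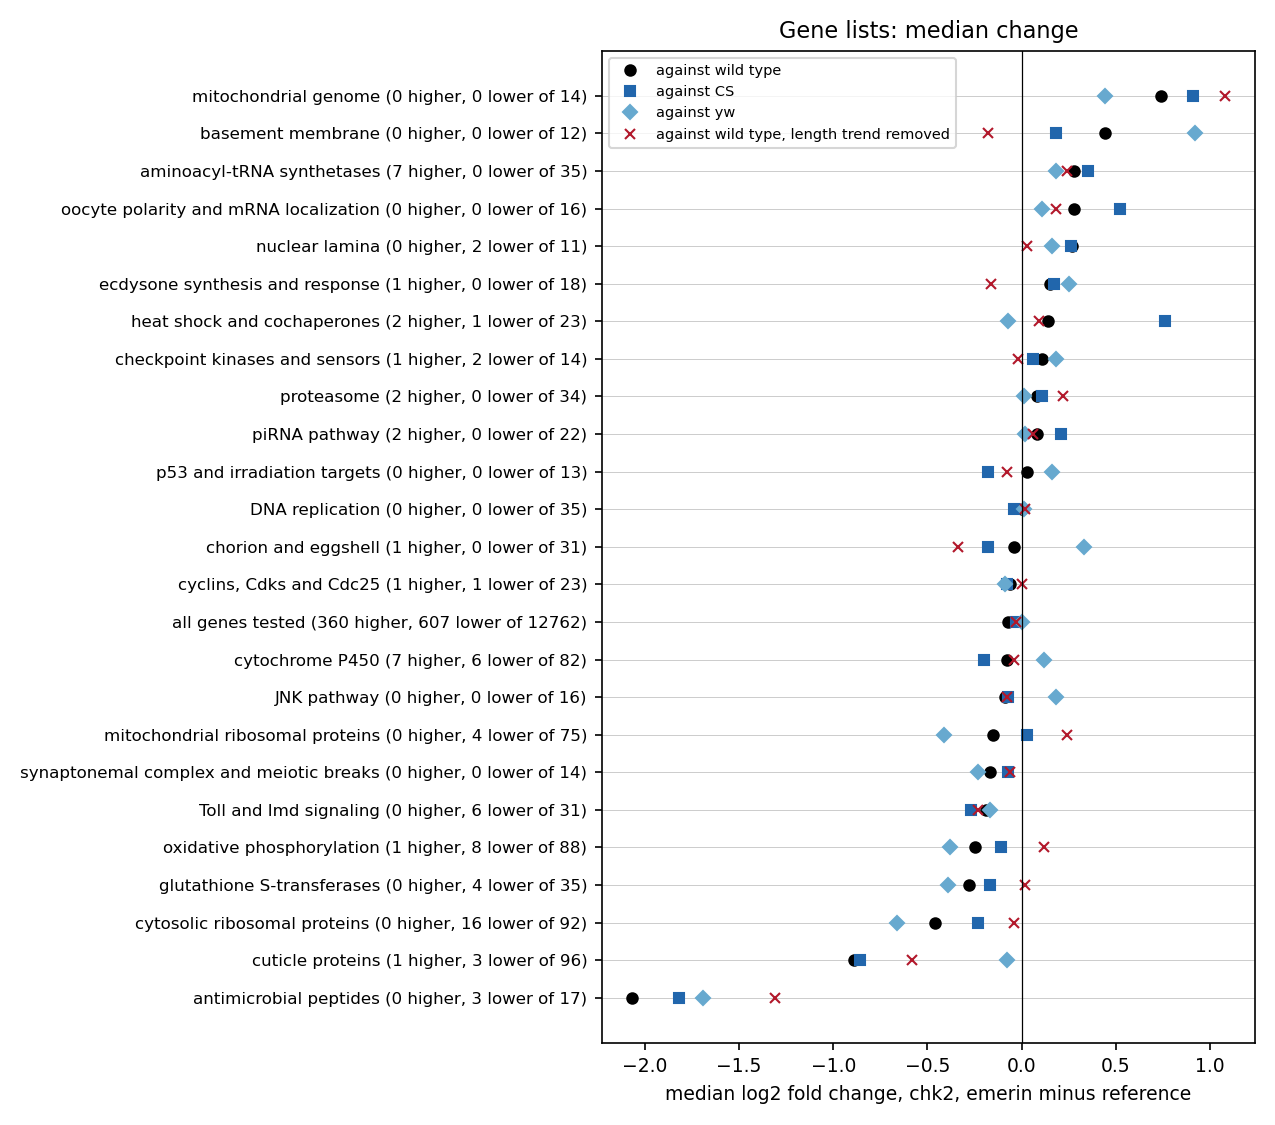
Median log2 fold change of each gene list against wild type (black circles), CS (squares) and yw (diamonds) and against wild type with the length trend removed (crosses), with the number of genes called and tested beside the list name. The antimicrobial peptides lie lowest at -2.07, and the cytosolic ribosomal proteins move from -0.46 to -0.04 when the trend is removed.

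The proteasome list, with 34 genes, held 2 higher genes and 0 lower, 5.88% higher against 2.82% of all genes. Rpn2 was at 518, 507 and 579 CPM against 305 to 409 (log2 fold change 0.63, edgeR adjusted p = 0.00347), and Rpn1 at 440, 394 and 440 CPM against 226 to 338 (log2 fold change 0.57, edgeR adjusted p = 0.00931, called in 8 of 10). Both encode the large base subunits of the regulatory particle.

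Heat shock genes depended on the strain. Of 23 genes, 2 were higher and 1 lower against wild type, 8.7% and 4.35%, beside 2.82% and 4.76% of all genes. Against CS 9 were higher, 39.1% beside 4.15% of all genes, and 0 lower. Against yw 2 were higher, 8.7% beside 5.37%, and 5 lower, 21.7% beside 9.58%. Hsp70Bc, 1 of 6 near-identical inducible Hsp70 genes, was at 63.0, 37.5 and 81.3 CPM against 0.398 to 23.9, median 5.27 (log2 fold change 3.06, edgeR adjusted p = 0.0145, called in 8 of 10). In emerin single mutants it was at 33.8 to 76.7 CPM. The reads of these copies can be exchanged in the estimation, and their sum showed no such separation. It was 1100, 509 and 1320 CPM in the double mutants, 43.2 to 205 in CS and 425 to 1020 in yw, so the sum was above every CS library and overlapped with yw. Hsp27 was called lower, at 145, 155 and 195 CPM against 216 to 457 (log2 fold change -0.90, edgeR adjusted p = 0.0396, called in 4 of 10), and was not called with the length trend removed, at -0.78 (edgeR adjusted p = 0.0882).

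Cytochrome P450 enzymes, which oxidise toxins and hormones, held genes of both directions. Of 82 P450 genes, 7 were higher and 6 lower, 8.54% and 7.32%, beside 2.82% and 4.76% of all genes. Against CS 10 were higher and 12 lower, 12.2% and 14.6% beside 4.15% and 7.38% of all genes. Against yw 12 were higher and 5 lower, 14.6% and 6.1% beside 5.37% and 9.58%. Beside those described above, Cyp28c1 was at 2.52, 1.61 and 1.29 CPM against 0.0 to 0.267 (log2 fold change 4.69, edgeR adjusted p = 0.00666), and Cyp6d2 at 50.5, 43.5 and 39.2 CPM against 4.06 to 26.3. For Cyp6d2 the log2 fold change was 3.24 against CS and 1.07 against yw, and its call against wild type (edgeR adjusted p = 0.0234) was lost in 3 of the 10 fits with a library left out. On the lower side, Cyp28a5 was at 0.610, 1.37 and 0.761 CPM against 2.39 to 5.10 (log2 fold change -1.89, edgeR adjusted p = 0.00209), and Cyp6a9 had a log2 fold change of -1.33 (edgeR adjusted p = 0.00349). Of 35 glutathione S-transferase genes, 4 were lower (GstS1, GstE11, GstT2 and GstE3) and 0 higher, 11.4% lower against 4.76% of all genes, and none was called with the length trend removed. Against CS 3 were higher and 4 lower, 8.57% and 11.4% beside 4.15% and 7.38% of all genes. Against yw 0 were higher and 6 lower, 17.1% lower beside 9.58%. The calls of GstS1, GstE11 and GstE3 were also lost without chk2, emerin replicate 1 and without replicate 3.

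For the germ line, none of 8 germ line, 5 germline stem cell and early cyst, 14 synaptonemal complex and meiotic break, 16 oocyte polarity and 35 DNA replication genes was called by edgeR against the pooled wild type. Against yw, 2 DNA replication genes were higher and 4 lower and 1 germ line gene was lower, and against CS 1 synaptonemal complex or meiotic break gene was higher and 1 lower. At unadjusted p below 0.05 against the pooled wild type these lists held 0, 1, 2, 3 and 3 genes that were up and 1, 0, 2, 1 and 4 that were down. In emerin single mutants they held 7, 3, 9, 13 and 34 lower and 1, 2, 1, 0 and 0 higher genes. The germ line list, which holds vas, aub and osk, summed to 4360, 4250 and 4390 CPM in the double mutants. It summed to 3200 to 3590 in CS and 4180 to 4980 in yw, so the double mutants were above every CS library and overlapped with yw. The oocyte polarity list likewise summed to 11900 to 13600 CPM in the double mutants, 7970 to 9640 in CS and 11300 to 12500 in yw. Follicle cell markers summed to 372 to 595 CPM in the double mutants, so that defining markers of ovarian germ line and soma were present.

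Among 14 checkpoint genes, beside lok, Hus1-like was lower and mei-41 higher, which is 14.3% lower and 7.14% higher genes with lok included, beside 4.76% and 2.82% of all genes. Hus1-like encodes a subunit of the clamp that activates ATR, and was at 5.94, 6.41 and 5.06 CPM against 9.12 to 17.6, median 11.3 (log2 fold change -1.03, edgeR adjusted p = 0.00678, called in 9 of 10). It stayed lower with the length trend removed, at -0.79 (edgeR adjusted p = 0.0216). The gene mei-41, the fly ATR kinase, was at 73.0, 56.4 and 58.2 CPM against 23.5 to 50.6 (log2 fold change 0.75, edgeR adjusted p = 0.035, called in 4 of 10), and with the trend removed it was at 0.23 and not called. None of 13 p53 and irradiation target genes was called by edgeR against the pooled wild type (1 up and 1 down at unadjusted p below 0.05), nor any of 16 JNK pathway genes (2 and 2). Against CS, 2 genes of the first list and 1 of the second were lower, and against yw 1 of the first was higher and 1 lower. Among 23 cyclin, Cdk and Cdc25 genes, CycE was higher and CycH lower, with log2 fold changes of 0.40 and -0.66, called in 3 and 6 of the 10 fits and in neither case with the length trend removed, at 0.18 and -0.40 (edgeR adjusted p = 0.499 and 0.124).

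Of 11 genes in the nuclear lamina list, baf was called lower beside Ote, 18.2% lower beside 4.76% of all genes. It was at 51.6, 75.1 and 74.7 CPM against 83.2 to 195, median 111 (log2 fold change -0.80, edgeR adjusted p = 0.0379, called in 4 of 10). Against CS it was at -0.55 (edgeR adjusted p = 0.0895), and with the length trend removed at -0.43 (edgeR adjusted p = 0.125). No other gene of the list was called against the pooled wild type. Against yw 2 of the list were lower, 18.2% beside 9.58% of all genes, and 2 higher, 18.2% beside 5.37%. The higher ones were Msp300 and Kdm2, at 1.61 and 0.56 (edgeR adjusted p = 0.0485 and 0.0321), names added after their values were seen. Kdm2 is a histone demethylase gene and no structural component of the lamina, and Msp300 and Kdm2 are both named only for this comparison. Neither was called against CS, where Ote alone was called in the list.

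Markers of other cells were examined in the same way. In the muscle sheath list, 3 of 15 genes were lower and 0 higher, beside 4.76% lower among all genes. Against CS 9 were lower, 60.0% beside 7.38% of all genes, and against yw 2, 13.3% beside 9.58%. Mp20, a calponin-like muscle protein, was at 88.7, 98.4 and 89.8 CPM against 164 to 371, median 210, and did not overlap (log2 fold change -1.29, edgeR adjusted p = 0.00221). Mlc1 was at 106, 107 and 104 CPM against 137 to 295 (log2 fold change -0.96, edgeR adjusted p = 0.00921, called in 8 of 10, at -0.65 and not called with the length trend removed), and Mlc2 at 494, 394 and 418 CPM against 468 to 1060 (log2 fold change -0.77, edgeR adjusted p = 0.0318, called in 6 of 10). The summed muscle level was 6590, 5340 and 5490 CPM in the double mutants, 7290 to 8940 in CS and 4450 to 5770 in yw, so it was below CS and overlapped with yw. Emerin single mutants had up to 38100 CPM.

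Fat body markers summed to 176, 197 and 174 CPM against 96.3 to 447, and hemocyte markers to 204, 157 and 175 CPM against 110 to 323. Both overlapped with wild type, and no defining marker of either list was at 0 in the 10 libraries. Against the pooled wild type 1 of 9 and 0 of 8 genes were called lower, 11.1% and 0.0% beside 4.76% of all genes. Against CS, 2 fat body and 3 hemocyte genes were lower, 22.2% and 37.5% beside 7.38% of all genes, with list medians of -0.61 and -1.18. Against yw none was lower and 1 of each was higher, 11.1% and 12.5% beside 5.37% of all genes, with medians of 0.44 and 0.93. The called gene was Lsp1alpha, a larval serum protein, at 2.36, 1.71 and 1.75 CPM against 2.34 to 23.5 (log2 fold change -2.51, edgeR adjusted p = 0.0346, called in 6 of 10). The part of these cells in the lower immune genes was not tested. In the testis, gut and neuron lists edgeR called no gene against the pooled wild type or CS and 1 testis gene higher against yw, and against the pooled wild type at unadjusted p below 0.05 there were 0, 1 and 0 up and 0, 0 and 1 down.

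In the eggshell and cuticle lists the called genes were few. Muc11A was at 52.2, 130 and 170 CPM against 3.30 to 56.3, with overlap (log2 fold change 2.53, edgeR adjusted p = 0.0339, called in 6 of 10), and was not called with the length trend removed, at 2.35 (edgeR adjusted p = 0.0513). The cuticle list, chosen by symbol, held 1 higher and 3 lower of 96, and the higher one, Acp76A, is an accessory gland serpin and no cuticle protein. It was at 1.1, 0.636 and 1.06 CPM and had no count in wild type, at least 6.96-fold higher against the floor (edgeR adjusted p = 0.00691). EcR, the ecdysone receptor, was higher, at 89.4, 78.8 and 83.7 CPM against 46.1 to 76.0 (log2 fold change 0.50, edgeR adjusted p = 0.0346, called in 4 of 10), and was at 0.14 and not called with the length trend removed. Escort and terminal filament, follicle cell, basement membrane and yolk genes had no call by edgeR against the pooled wild type, and at unadjusted p below 0.05 there were 1, 1, 1 and 2 up and 0, 1, 1 and 0 down. Against yw, 5 of 12 basement membrane genes and 2 of 12 yolk genes were higher, 41.7% and 16.7% beside 5.37% of all genes. Against CS, 2 of 6 follicle cell genes and 1 basement membrane gene were lower, 33.3% and 8.33% beside 7.38%. The basement membrane transcripts are long, with a median of 6046 bases. The median log2 fold change of that list against the pooled wild type went from 0.44 to -0.18 with the length trend removed.

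The called genes were spread over the genome. They made up 7.0% of the genes tested on X, 7.62% on 2L, 9.17% on 2R, 7.25% on 3L, 6.82% on 3R and 8.33% on chromosome 4, against 7.58% of all. Within 500 kb of lok, 2 of 69 genes were higher and 3 lower, 7.25%, and within 500 kb of Ote 4 of 140 were higher and 10 lower. By this call the share near lok was close to that of all genes, and the share near Ote was above it. The 2 higher and 3 lower genes near lok were all also called against both CS and yw, beside 1.39% and 2.51% of all genes. Of the 140 genes near Ote, 2 higher and 2 lower ones were called against both strains, beside the same 1.39% and 2.51% of all genes. Among the named genes in this window, CG31683, at 23.8, 33.9 and 29.1 CPM against 0.0 to 1.91 (log2 fold change 4.83, edgeR adjusted p = 0.00319), is 383 kb away. CR44906, at 2.16, 2.20 and 2.47 CPM against 0.0 to 0.328, is 319 kb away, and fok, at 100, 106 and 95.2 CPM against 156 to 291 (log2 fold change -1.07, edgeR adjusted p = 0.00349), is 15 kb away. Oseg5, CG9338 and CG33509, described above, lie 768, 801 and 1020 kb from lok. Near Ote, Dp1 was higher, at 1960, 1680 and 1830 CPM against 945 to 1350 (log2 fold change 0.71, edgeR adjusted p = 0.00504), and was at 0.32 and not called with the length trend removed. BomS3 and imd lie 111 and 133 kb from Ote, and GstE3 and GstE11 124 and 226 kb. The Bomanin genes BomBc2, BomS2, BomS5, BomS6 and BomT2, also called lower, lie in 1 cluster with BomS3. The 10 lower genes near Ote thus include this cluster. Variants carried along with the mutated alleles were not examined here.

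The references disagreed outright on 30 genes, with 11 higher than CS and lower than yw and 19 lower than CS and higher than yw. NimC1, a phagocytosis receptor of hemocytes, was at 3.54, 5.63 and 6.69 CPM in the double mutants, 14.2 to 23.7 in CS and 0.626 to 0.808 in yw. Dh44-R2, a receptor for the diuretic hormone Dh44, was at 20.7, 21.8 and 24.3 CPM, 2.89 to 3.93 in CS and 37.5 to 51.1 in yw. In both genes the double mutants lay between the strains without overlap with either. CG31676, Adk3 and CG9394 were likewise lower than CS, at -2.48, -0.99 and -1.66, and higher than yw, at 1.32, 0.99 and 1.34. None of the 5 was called against the pooled wild type, where the edgeR adjusted p ran from 0.194 to 0.96.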

How the data were processed

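Counts per gene of 18 ovary libraries were analysed. Per the labels and methods, the authors trimmed reads with Trim Galore 0.6.6, quantified them with kallisto 0.46.1 and deposited estimated counts per gene, which were whole numbers and used as deposited, and per transcript estimated counts and TPM values, used for the lok transcripts. Positions came from the BDGP6.54 annotation, the same assembly as the authors' BDGP6.32. Median transcript lengths were taken from the lengths in the authors' transcript tables, with transcripts assigned to genes by that annotation.

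Genes with 10 or more counts in total were fitted in edgeR 4.0.16 (R 4.3.3) with TMM factors and quasi-likelihood tests on all 18 libraries, CS and yw as 1 group or apart, with Benjamini-Hochberg adjustment. A length trend (lowess, span 0.3, on log2 CPM with a pseudocount of 0.5) was removed as an offset. Fold changes against groups at 0 used a floor of 3 counts per library. Intervals and floors cover counting error only. The test was also run on simulated data, and the outcome is not given here. DESeq2 1.42.0, other scalings and filters, and leaving out each library were tried.

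Same-numbered CS and chk2, emerin libraries had correlated deviations from their group means (0.421, 0.302 and 0.112), whereas for yw they were 0.025, 0.006 and 0.252. Differently numbered CS and double mutant libraries had -0.35 to 0.177, the highest for CS 4 with double mutant replicate 3. The replicate block was put on the CS, yw and double mutant libraries together, and nothing in the labels says what same-numbered libraries share. P-values measure the spread between these samples.

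Named genes were the targets, the 10 highest and 10 lowest fold changes and then the 5 smallest p among those not yet named, in each direction, among genes called against wild type, CS and yw without overlap and with a mean of 100 counts in the higher group, up to 3 called members per list, up to 3 within 500 kb of each target and 5 of opposite direction between strains. Near-copies, the Bomanin genes and further called members were added after their values were seen. The members and lists were chosen with earlier results of these data known.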

Additional observations from a re-analysis of the deposited data

Results flagged for a closer look

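In 44 tests for a library far from the others of its group, where chance alone marks about 5% of groups, 2 stood out among the 7 wild-type libraries. Cyp6a17 was at 0.864 CPM in CS 3, and Hsp70Bc was at 23.9 CPM in yw 3. For 9 named genes the fold change depended on the strain used as reference, by edgeR's test of CS against yw. The log2 fold change against yw minus that against CS was -2.18 for Hsp70Bc, 1.65 for GNBP-like3, 1.76 for Cyp312a1 and -0.59 for fok, all of which had the same direction against both strains. It was 4.71 for NimC1, -3.72 for Dh44-R2, 3.8 for CG31676, 1.98 for Adk3 and 2.99 for CG9394, for which the directions were opposite. These 5 genes were named because their calls against CS and yw were opposite, so their dependence on the strain was fixed by that choice.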

How the results depend on the processing

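Over 25 settings, 1657 of 1974 values for 79 named genes kept direction and side of the threshold and 298 lost the call. Genes higher and lower than wild type numbered 759 and 1174 with DESeq2, 122 and 172 with only the compared groups fitted, 140 and 217 with the length trend removed, 93 and 138 at an adjusted p under 0.01, 103 and 310 at 2-fold or more, and 643 and 1062 with the strains as separate groups averaged. With CS 3, CS 4 and yw 3 alone and the trend removed, an alternative chosen after seeing the data, they were 108 and 176. Library size alone gave 923 lower genes. With the replicate block they were 37 and 32. Against CS there were 304 and 1448 with library size alone, 919 higher with DESeq2, 608 lower with the replicate block, 198 and 412 at 0.01, and 174 and 576 at 2-fold. Against yw there were 1126 higher with DESeq2, 405 and 743 with the compared groups only, 582 lower with the replicate block, 150 and 166 with CS 3, CS 4 and yw 3 only, 249 and 426 with the trend removed, 183 and 415 at 0.01, and 302 and 469 at 2-fold. Against both strains there were 355 higher with DESeq2, 112 and 195 with the compared groups only, 171 lower with the replicate block, 55 and 77 with CS 3, CS 4 and yw 3 only, 267 higher with library set as a term, 79 and 147 with the trend removed, 53 and 99 at 0.01, and 57 and 150 at 2-fold. The causes of these differences were not tested, apart from the stricter thresholds.

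Leaving out 1 library gave 75 to 460 higher and 92 to 704 lower genes against wild type, 243 to 599 and 479 to 1080 against CS, 237 to 938 and 478 to 1455 against yw, and 69 to 210 and 128 to 324 against both. Against CS the counts were 281 and 570 without chk2, emerin replicate 1, 243 and 479 without replicate 3, and 340 higher without CS replicate 3. Against yw they were 252 and 478, 369 and 680 without the same double mutants, 237 and 502 without yw replicate 1, and 344 higher without yw replicate 3. Against both they were 69 and 128, 84 and 144 without these double mutants, and 92 higher without yw replicate 1. The direction turned for mRpL55, at 0.08 with the 3 wild-type libraries and the trend removed, and against yw alone for NimC1 at 2.91, Dh44-R2 at -0.99, CG31676 at 1.32, Adk3 at 0.99 and CG9394 at 1.34.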
